A study of Homo sapiens with 16 samples.

Results

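The genes described here are a list of 39 human genes of homologous recombination and of the Fanconi anaemia pathway, named by symbol. Probe sets of the deposited array table were assigned to genes by the array's gene annotation, and for each gene the one with the highest 16-array mean was taken. This gave a value for 35 of the 39 genes, among 19775 genes in all. BRCA2, FANCA, FANCD2 and RBBP8 were not analysed here. The cells were MiaPaca-2, an established human pancreatic cancer cell line, in serum-containing high-glucose medium. They received PP242, an inhibitor of the kinase mTOR, at 2.5 µM for 12 h, or the DMSO vehicle for the same time. From each treatment the cytosolic RNA was taken, and a share of it was run on a sucrose gradient, from which the fractions of mRNA carrying more than 3 ribosomes were pooled as polysome-associated RNA. The 4 groups were polysome RNA of PP242-treated cells, polysome RNA of vehicle-treated cells, cytosolic RNA of PP242-treated cells and cytosolic RNA of vehicle-treated cells, with 4 arrays in each. All groups thus come from 1 cell line at 1 dose and 1 time. The labels number the replicates but do not say whether they are separate cultures, so the p-values measure the spread between these samples, which may be technical.

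Homologous recombination repairs a broken chromosome by copying the sister chromatid, and is used mainly in S and G2 phase. The break ends are cut back to single-stranded DNA, RPA coats that DNA, and with the help of the BRCA proteins the strand is joined to the matching sequence. The joined molecules are then taken apart by dissolution or by nucleases. The Fanconi anaemia pathway deals with crosslinks between the DNA strands: a core complex attaches ubiquitin to the FANCD2 and FANCI pair, and the crosslink is cut out and the resulting break passed on to recombination.

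After PP242 the list parted into genes that fell and genes that were not called, and no gene on it was called higher. Values are on the log2 scale, on which a step of 1 doubles the level, and each effect is the PP242 mean minus the vehicle mean, given ± its standard error from limma. A gene was called when its limma p-value, adjusted by the Benjamini-Hochberg procedure over all 19775 genes, was under 0.05. In polysome RNA 21 of the 35 genes were lower, against 6.55% of all genes, and 0 were higher, against 6.82%. In cytosolic RNA 22 were lower, against 7.91% of all genes, and 0 were higher, against 8.54%. The median effect over the list was -0.78 in polysome RNA and -0.90 in cytosolic RNA, beside -0.01 and 0.04 over all genes. In both pools 20 genes fell, against 4.28% of all genes. FANCE fell in polysome RNA and was not called in cytosolic RNA, and MRE11 and FANCL fell in cytosolic RNA and were not called in polysome RNA. The 12 genes called in neither pool were RAD50, NBN, PALB2, RAD51B, RAD51D, XRCC2, XRCC3, RAD52, FANCF, MUS81, GEN1 and SLX4. The plot of the effects in both pools shows each gene with its calls.

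**Figure D1:**
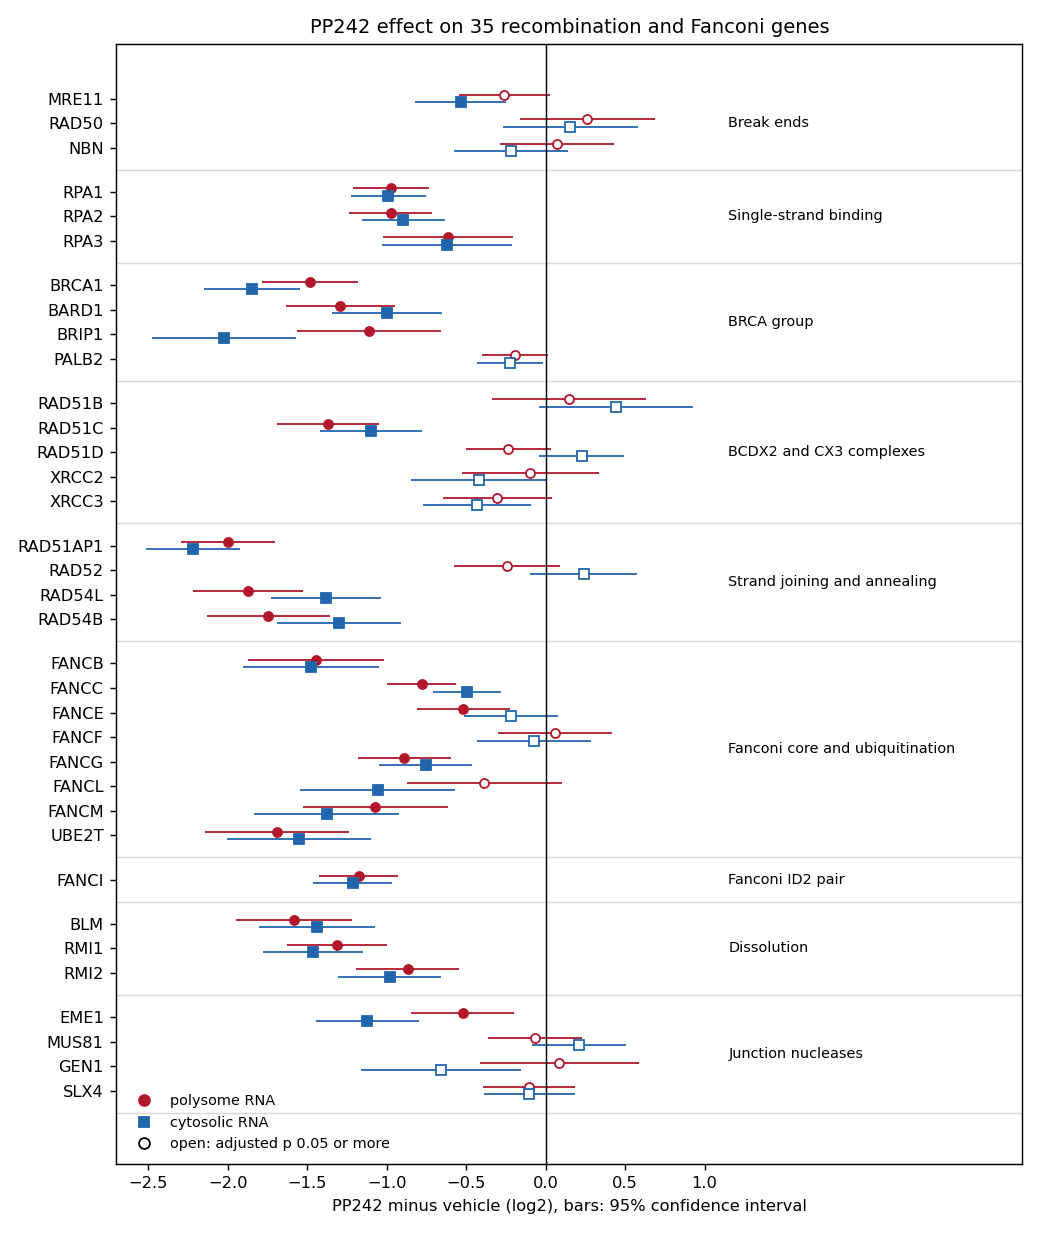
PP242 effect (log2, PP242 minus vehicle) of each of the 35 measured genes, grouped by role, in polysome RNA and in cytosolic RNA; bars are 95% confidence intervals from limma, and filled points passed an adjusted p of 0.05. The largest falls are those of RAD51AP1, at -2.0 and -2.22, and the 12 genes called in neither pool lie between -0.31 and 0.26 in polysome RNA and between -0.66 and 0.44 in cytosolic RNA.

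The genes that fell in both pools covered effects of -2.0 to -0.52 in polysome RNA, with a median of -1.24, and of -2.22 to -0.50 in cytosolic RNA, with a median of -1.26. The genes called in neither pool had medians of -0.08 in polysome RNA and -0.09 in cytosolic RNA. The 2 sets were cut by the calls on these same effects, so their medians differ by construction. In cytosolic RNA the effects of the 2 sets overlapped. GEN1, called in neither pool, was at -0.66, while RPA3 and FANCC, which fell, were at -0.62 and -0.50. The standard errors of the genes called in neither pool, 0.10 to 0.24, covered nearly the same range as the 0.10 to 0.22 of the genes that fell. A gene has the same standard error in both pools, since its variance was fitted over all arrays together. That error takes in the cytosolic PP242 arrays. Their median SD per gene over the listed genes was 0.33, against 0.17 in polysome PP242 arrays. The standard errors therefore do not give the precision of the polysome arrays alone. By the plainer criterion of whether the 4 arrays of one treatment lay wholly apart from the other 4, PP242 arrays were below all vehicle arrays for 23 genes in polysome RNA, against 9.86% of all genes, and for 22 genes in cytosolic RNA, against 8.34%. The opposite order was found for 0 genes in either pool, against 9.47% and 9.34% of all genes.

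The 2 pools appear to have been normalized apart from each other, since array medians were 4.57 to 4.63 in polysome RNA and 5 to 5.05 in cytosolic RNA. Each effect is therefore relative to the other mRNAs of its pool. Arrays of a group correlated at 0.979 to 0.998. The cytosolic PP242 arrays were the most spread, with a median SD per gene of 0.25 over all genes and 0.33 over the listed genes, against 0.12 and 0.17 in cytosolic vehicle arrays. Of the marker genes of the cell line, KRT18 averaged 13.1 to 14.3 and VIM 14.02 to 14.26 over the groups, while EPCAM, a surface protein of many epithelia, stood at 2.61 to 2.98, near the lower end of the array's values. The keratins of that list moved with PP242. KRT19 averaged 11.93 in polysome RNA of PP242-treated cells, against 10.8 in vehicle-treated cells, and 10.86 in cytosolic RNA of PP242-treated cells, against 9.29 in vehicle-treated cells. KRT19 and KRT18 were called higher in both pools, and KRT8 in cytosolic RNA but not in polysome RNA. Of the marker lists of other cell types, those of leukocytes, endothelium and normal pancreas had 0 genes called by limma in either pool, of 6, 4 and 6 measured. PTPRC, the pan-leukocyte marker, stood at 2.91 to 3.42, and CD79A, the highest of the leukocyte list, at 5.96 to 6.41. Of 6 fibroblast markers COL1A2 and COL3A1 fell in both pools. COL1A2 averaged 10.96 to 12.21 over the groups and COL3A1 6.08 to 7.56. COL1A1 at 6.62 to 7.15 and LUM at 3.24 to 3.33 were not called.

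The fall of these genes ran beside that of genes of the cell cycle. Of 24 S phase genes all 24 fell in both pools, with median effects of -1.73 in polysome RNA and -1.47 in cytosolic RNA. Their mean level per array was 8.20 to 8.66 in polysome RNA of PP242-treated cells, against 9.92 to 10.19 in vehicle-treated cells, and 7.96 to 8.40 in cytosolic RNA of PP242-treated cells, against 9.57 to 9.89 in vehicle-treated cells. Of 20 mitotic genes 19 fell in polysome RNA and 19 in cytosolic RNA, with medians of -1.17 and -1.30. Their mean level was 8.71 to 8.96 in polysome RNA of PP242-treated cells, against 9.87 to 10.11 with vehicle, and 8.37 to 8.47 in cytosolic RNA of PP242-treated cells, against 9.51 to 9.80 with vehicle. In RNA from whole cultures, fewer cells in a phase and less RNA per cell cannot be told apart, and the part of the cell cycle in the fall of the repair genes was not tested.

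The promoters of 6 genes are shown so that genes that fell and genes called in neither pool can be set side by side by sequence. Each is a RefSeq window of GRCh38.p14, 250 bases before to 50 bases after the annotated transcript start, printed in the direction of the gene. Capitals mark the word TTCCCGC, its variant TTCGCGC, its variant TTGCCGC and its variant TTGGCGC, on either strand, the core letters bound by E2F factors, which drive genes of the G1 to S transition; a T before the word makes it 1 letter longer. RAD51AP1 lies at chr12:4538640-4538939, plus strand, and RAD54L at chr1:46247438-46247737, plus strand. BLM lies at chr15:90717096-90717395, plus strand, and BRCA1 at chr17:43125315-43125614, minus strand. BRCA1 has another window, at chr17:43170278-43170577, which holds none of these words, and RAD54L has an overlapping window with the same word. These 4 fell in both pools. XRCC2 at chr7:152676092-152676391, minus strand, and PALB2 at chr16:23641261-23641560, minus strand, were called in neither.
RAD51AP1: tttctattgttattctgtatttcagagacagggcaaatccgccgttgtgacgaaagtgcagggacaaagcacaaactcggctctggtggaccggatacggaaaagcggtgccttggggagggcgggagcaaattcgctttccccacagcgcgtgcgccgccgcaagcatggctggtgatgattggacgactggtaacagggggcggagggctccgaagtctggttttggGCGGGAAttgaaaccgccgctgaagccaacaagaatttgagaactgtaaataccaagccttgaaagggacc
RAD54L: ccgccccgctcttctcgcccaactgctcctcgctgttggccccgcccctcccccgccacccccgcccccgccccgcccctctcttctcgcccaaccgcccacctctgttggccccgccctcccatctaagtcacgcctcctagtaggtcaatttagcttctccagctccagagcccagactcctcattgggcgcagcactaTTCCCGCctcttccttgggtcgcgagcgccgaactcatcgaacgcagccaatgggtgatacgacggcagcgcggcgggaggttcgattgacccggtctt
BLM: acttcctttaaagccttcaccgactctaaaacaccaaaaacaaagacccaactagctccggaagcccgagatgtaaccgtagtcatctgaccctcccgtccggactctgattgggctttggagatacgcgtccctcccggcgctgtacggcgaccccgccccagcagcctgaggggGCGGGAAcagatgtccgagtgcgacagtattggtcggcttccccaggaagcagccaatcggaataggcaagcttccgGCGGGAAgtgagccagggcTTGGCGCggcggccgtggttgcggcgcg
BRCA1: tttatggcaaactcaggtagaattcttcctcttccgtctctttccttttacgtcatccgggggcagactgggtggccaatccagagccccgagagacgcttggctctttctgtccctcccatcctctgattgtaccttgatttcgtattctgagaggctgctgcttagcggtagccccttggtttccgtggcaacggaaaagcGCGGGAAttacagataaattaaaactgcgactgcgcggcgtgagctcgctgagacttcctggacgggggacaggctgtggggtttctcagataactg
XRCC2: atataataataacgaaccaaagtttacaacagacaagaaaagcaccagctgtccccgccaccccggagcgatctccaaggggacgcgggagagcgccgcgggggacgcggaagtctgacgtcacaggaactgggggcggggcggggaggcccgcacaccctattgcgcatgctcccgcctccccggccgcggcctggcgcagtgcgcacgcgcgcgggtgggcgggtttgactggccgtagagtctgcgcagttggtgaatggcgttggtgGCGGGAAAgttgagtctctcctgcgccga
PALB2: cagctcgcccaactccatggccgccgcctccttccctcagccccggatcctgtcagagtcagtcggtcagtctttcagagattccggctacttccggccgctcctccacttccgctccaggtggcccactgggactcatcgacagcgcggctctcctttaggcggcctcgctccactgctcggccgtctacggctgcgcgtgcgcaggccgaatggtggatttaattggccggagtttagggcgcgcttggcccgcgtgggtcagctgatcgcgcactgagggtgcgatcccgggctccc

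Counted from 0 at the annotated start, the word lay at -21 to -15 in RAD51AP1, at -49 to -43 in RAD54L and at -47 to -41 in BRCA1. BLM held 3 words, at -74, 3 and 22. XRCC2, which was called in neither pool, held the longer form with the added T at 21 to 28, and the PALB2 window held none. With other fit settings, given below, XRCC2 was called lower in cytosolic RNA. Of the 35 genes 29 had a window, and a gene with several windows was counted once, as holding a word when any of them did. The word was in 19 of these 29 genes (65.5%), against 4169 of all 27305 genes with a window (15.3%). It was in 11 of 15 genes that fell in both pools (73.3%) and in 6 of 11 genes called in neither (54.5%), so most of the uncalled genes with a window held it as well. The longer form was in 2 of 15 genes (13.3%) that fell in both and in 2 of 11 (18.2%) called in neither, against 3.99% of all genes. The word CCAAT, bound by NF-Y, was in 15 of the 29 genes (51.7%), against 39.7% of all genes. The word TTTGAA and its variant TTCGAA, which match the cell cycle homology region of mitotic genes, were in 4 of the 29 (13.8%), against 19.5%. These are matches of letters in the windows, and the map of the words draws their positions.

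**Figure D2:**
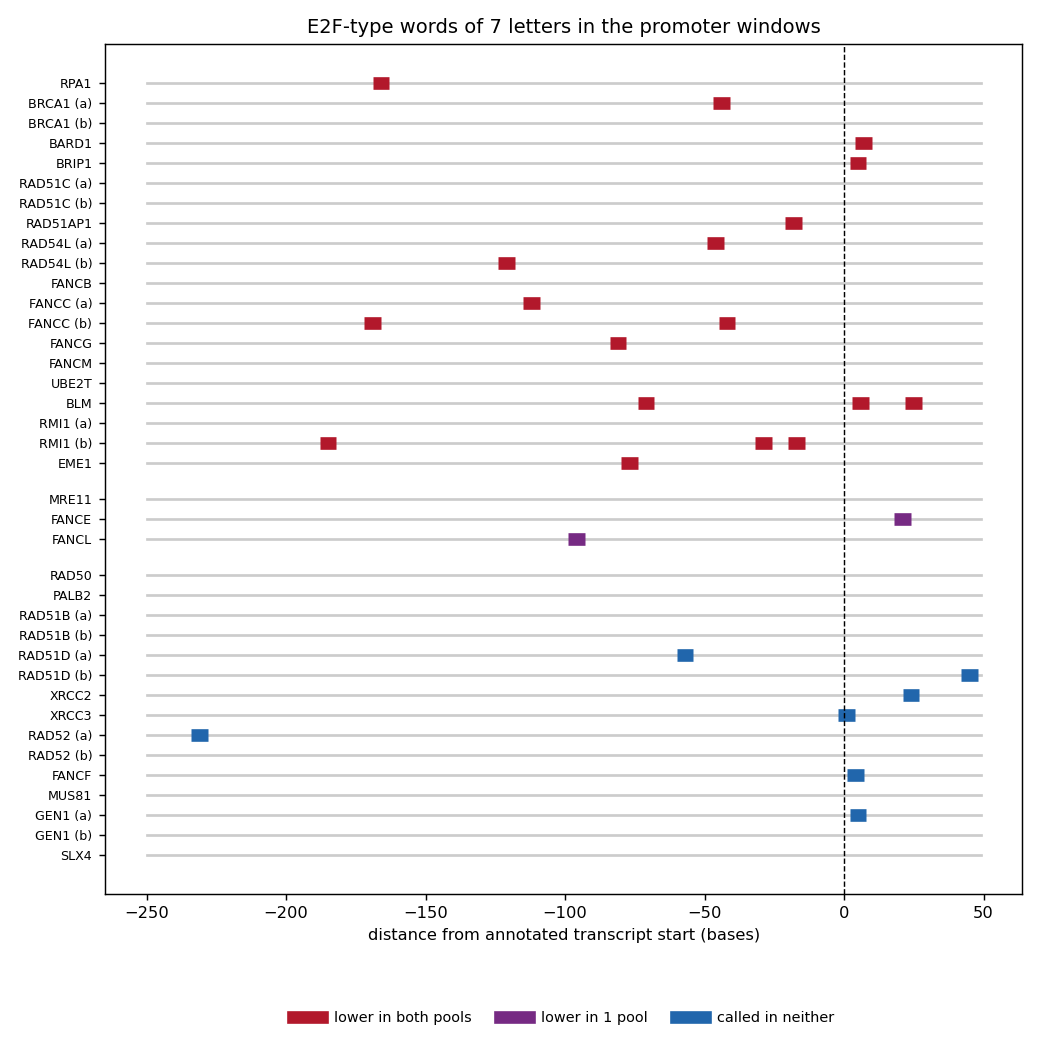
Positions of the E2F-type words in the RefSeq promoter windows of the measured genes, in bases from the annotated start; each line is 1 window, letters in brackets mark several windows of 1 gene, and the genes are ordered by whether they fell in both pools, in 1 pool or in neither. Words appear in 11 of 15 genes that fell in both pools and in 6 of 11 called in neither.

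At the break ends, none of the 3 measured members of the MRN complex was called in polysome RNA. This complex binds the ends, tethers them and starts their cutting back. MRE11, its nuclease (chr11:94415570-94512412, GRCh38.p14), had 8.02, 8.10, 7.78 and 7.89 in polysome RNA of PP242-treated cells, against 8.14, 8.46, 8.12 and 8.11 in vehicle-treated cells. Its cytosolic values were 6.65, 6.77, 7.29 and 7.06 in PP242-treated cells, against 7.47, 7.42, 7.46 and 7.56 in vehicle-treated cells. The PP242 arrays were below every vehicle array in both pools, narrowly on polysomes. The cytosolic fall of -0.54 ± 0.14 was called (limma adjusted p = 0.0104) and the polysome effect of -0.26 ± 0.14 was not (adjusted p = 0.266). The cytosolic call was lost without replicate 1, 2 or 4 (adjusted p of 0.0938, 0.0695 and 0.0656), without cytosolic PP242 arrays 2 and 4 (0.056) and when the gene's probe sets were averaged (0.116). RAD50, the ATPase that holds the ends together, had 9.33, 9.66, 9.08 and 9.05 in polysome RNA of PP242-treated cells, against 8.92, 9.28, 8.99 and 8.88 in vehicle-treated cells. Its groups overlapped in both pools, with effects of 0.26 ± 0.20 in polysome RNA and 0.16 ± 0.20 in cytosolic RNA. NBN, which brings the kinase ATM to the complex, gave 0.07 ± 0.17 on polysomes and -0.22 ± 0.17 in the cytosol, also overlapping. RAD50 and NBN were not called in any of the 16 fits tried.

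All 3 subunits of RPA, the protein that coats single-stranded DNA in both replication and repair, fell in both pools. RPA1, its large subunit (chr17:1830005-1900082), had 10.37, 10.59, 10.65 and 10.74 in polysome RNA of PP242-treated cells, against 11.38, 11.65, 11.61 and 11.60 in vehicle-treated cells. The cytosolic arrays read 9.65, 9.39, 9.65 and 9.86 in PP242-treated cells, against 10.62, 10.65, 10.62 and 10.62 in vehicle-treated cells. The groups were far apart in both pools. The fall was -0.97 ± 0.11 on polysomes (adjusted p = 7.65e-06) and -0.99 ± 0.11 in the cytosol (adjusted p = 6.04e-06). RPA2, the middle subunit that kinases modify after damage, fell to a similar extent, at -0.98 ± 0.12 on polysomes and -0.90 ± 0.12 in the cytosol. RPA3, the small subunit, fell, at -0.61 ± 0.20 on polysomes and -0.62 ± 0.20 in the cytosol, with adjusted p-values of 0.0438 and 0.0352. Its polysome groups overlapped, since the highest PP242 array was at 10.05 and the lowest vehicle array at 9.99. The RPA3 call was lost in both pools without replicate 1 (adjusted p of 0.16 and 0.141), without replicate 2 (0.162 and 0.133) and without replicate 4 (0.139 and 0.0852). On polysomes it was also lost after quantile normalization (0.101) and cyclic loess (0.0637) over all arrays, and in the cytosol with array weights (0.0754) and when only the 8 cytosolic arrays were fitted (0.0649).

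Of the BRCA group, BRCA1 and the 2 proteins that bind it directly through its ends fell, and PALB2, which links BRCA1 to BRCA2, was not called. BRCA1 (chr17:43044295-43170327), the ubiquitin ligase subunit that favours cutting back of the ends, had 6.67, 6.85, 7.23 and 7.15 in polysome RNA of PP242-treated cells, against 8.37, 8.49, 8.53 and 8.43 in vehicle-treated cells. In cytosolic RNA it had 6.83, 6.81, 7.29 and 6.65 in PP242-treated cells, against 8.65, 8.66, 8.92 and 8.75 in vehicle-treated cells. More than a full log2 unit separated the groups in each pool. The effects were -1.48 ± 0.14 on polysomes (adjusted p = 1.08e-06), a 2.79-fold lower level, and -1.85 ± 0.14 in the cytosol (adjusted p = 8.85e-08), a 3.61-fold lower level. BARD1, its ligase partner, fell, at -1.29 ± 0.16 on polysomes and -0.998 ± 0.16 in the cytosol.

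BRIP1 (chr17:61679139-61863528), the helicase also named FANCJ, had the largest difference between its effects in the 2 pools, a difference that was not called. It had 5.50, 5.30, 5.62 and 5.67 in polysome RNA of PP242-treated cells, against 6.38, 6.62, 6.71 and 6.82 in vehicle-treated cells. Its cytosolic values were 4.83, 5.24, 6.31 and 5.53 in PP242-treated cells, against 7.30, 7.36, 7.68 and 7.67 in vehicle-treated cells. The cytosolic PP242 arrays differed among themselves by more than a log2 unit, and array 3 was the highest. The effects were -1.11 ± 0.22 on polysomes (adjusted p = 0.00146) and -2.03 ± 0.22 in the cytosol (adjusted p = 2.99e-06). PALB2 (chr16:23603165-23641310) had 7.36, 7.37, 7.41 and 7.36 in polysome RNA of PP242-treated cells, against 7.44, 7.60, 7.54 and 7.69 in vehicle-treated cells. The cytosolic arrays read 7.77, 7.81, 7.62 and 7.80 in PP242-treated cells, against 7.84, 8.0, 7.97 and 8.09 in vehicle-treated cells. Every PP242 array was below every vehicle array in both pools, but the difference was small. The effects of -0.19 ± 0.10 on polysomes (adjusted p = 0.261) and -0.23 ± 0.10 in the cytosol (adjusted p = 0.136) were not called, and the 95% intervals of -0.40 to 0.02 and -0.43 to -0.02 exclude a fall as large as that of BRCA1.

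**Figure D3:**
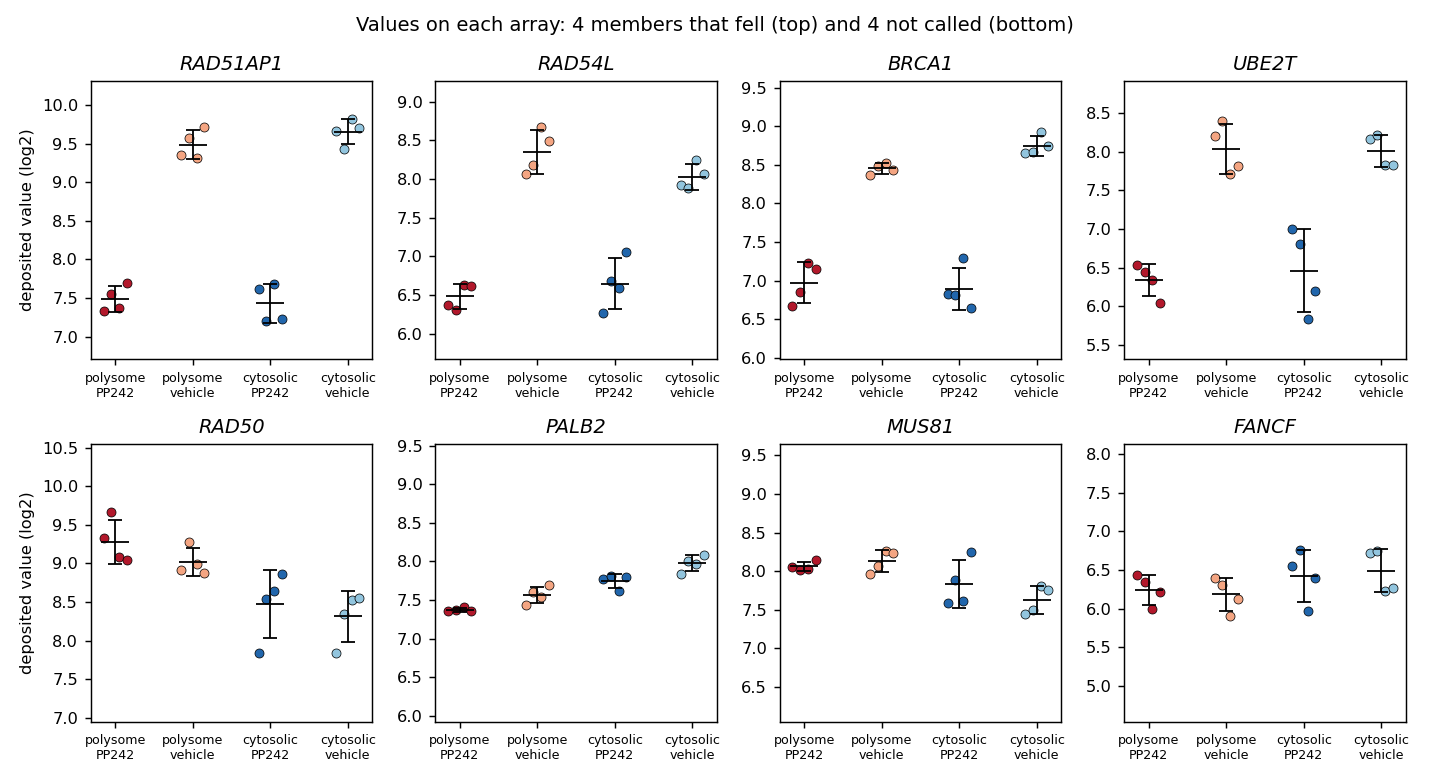
Log2 values of single genes on each of the 16 arrays, with PP242 left of vehicle in polysome RNA and then in cytosolic RNA; points are arrays, wide bars are group means and error bars are the SD (n = 4). The genes of the upper panels fell in both pools and those of the lower panels were called in neither; RAD51AP1 is at 7.33 to 7.70 with PP242 against 9.31 to 9.72 with vehicle in polysome RNA.

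The genes of the BCDX2 and CX3 complexes, which assist the joining of the strands, are RAD51B, RAD51C, RAD51D, XRCC2 and XRCC3, and RAD51C alone was called. It is the member shared by both complexes. RAD51C (chr17:58692573-58735611) had 8.12, 8.13, 7.71 and 8.10 in polysome RNA of PP242-treated cells, against 9.48, 9.59, 9.14 and 9.33 in vehicle-treated cells. In cytosolic RNA it had 7.96, 8.38, 7.72 and 8.42 in PP242-treated cells, against 9.22, 9.31, 9.20 and 9.15 in vehicle-treated cells. The groups did not overlap, and the effects were -1.37 ± 0.15 on polysomes (adjusted p = 4.82e-06) and -1.10 ± 0.15 in the cytosol (adjusted p = 5.56e-05). The partners of RAD51C in the larger complex gave 0.15 ± 0.23 on polysomes and 0.44 ± 0.23 in the cytosol for RAD51B, -0.24 ± 0.13 on polysomes and 0.23 ± 0.13 in the cytosol for RAD51D, and -0.10 ± 0.21 on polysomes and -0.42 ± 0.21 in the cytosol for XRCC2. XRCC3, its partner in the smaller complex, gave -0.31 ± 0.16 on polysomes and -0.43 ± 0.16 in the cytosol. PP242 and vehicle arrays of these 4 genes overlapped in both pools. Over the 16 arrays RAD51C averaged 8.69, against 5.85 for RAD51B, 6.44 for RAD51D, 5.79 for XRCC2 and 5.27 for XRCC3. RAD52 at 5.52 and GEN1 at 4.89 were also of low signal and called in neither pool. FANCB at 5.13 and FANCM at 5.53 fell, while RAD50 at 8.77 and MUS81 at 7.91 were not called. The means over 16 arrays include the fall itself. In cytosolic vehicle arrays FANCB averaged 5.91 and FANCM 6.30. There XRCC3 averaged 5.47, GEN1 5.49, RAD52 5.58, RAD51B 5.74, XRCC2 6.01 and RAD51D 6.33. Whether low signal kept a fall from being called was not tested.

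With the replicate number as a block, cytosolic RAD51B was called higher (adjusted p = 0.0126) and cytosolic XRCC2 lower (adjusted p = 0.032). RAD51B had 6.64, 6.63, 5.73 and 5.72 in cytosolic RNA of PP242-treated cells, against 5.96, 6.09, 5.37 and 5.53 in vehicle-treated cells, so that each PP242 array was above the vehicle array of its own number. XRCC2 was also called lower in cytosolic RNA without replicate 3 (adjusted p = 0.0384), and XRCC3 without replicate 1 (adjusted p = 0.0492). XRCC3 was called lower in polysome RNA without cytosolic PP242 arrays 2 and 4 (adjusted p = 0.0398). Another RAD51B probe set of lower signal fell in polysome RNA, at -0.94 ± 0.17 (adjusted p = 0.00131), so the probe sets of this gene disagreed.

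The genes of strand joining held the 3 largest falls of the list in polysome RNA. RAD51AP1 (chr12:4538890-4560047), which stimulates the joining of the strands, had 7.33, 7.55, 7.37 and 7.70 in polysome RNA of PP242-treated cells, against 9.35, 9.57, 9.31 and 9.72 in vehicle-treated cells. Its cytosolic values were 7.62, 7.20, 7.68 and 7.23 in PP242-treated cells, against 9.66, 9.43, 9.82 and 9.70 in vehicle-treated cells. The drop was of similar size on all 4 pairs of arrays. The effects were -2.0 ± 0.14 on polysomes (adjusted p = 3.11e-08), a 4.0-fold lower level, and -2.22 ± 0.14 in the cytosol (adjusted p = 1.36e-08), a 4.66-fold lower level.

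RAD54L (chr1:46247688-46278473), a motor protein of strand joining that moves along DNA, had 6.37, 6.31, 6.63 and 6.61 in polysome RNA of PP242-treated cells, against 8.06, 8.18, 8.68 and 8.49 in vehicle-treated cells. The cytosolic arrays read 6.26, 6.68, 6.59 and 7.06 in PP242-treated cells, against 7.92, 7.88, 8.25 and 8.07 in vehicle-treated cells. Neither pool showed overlap. The effects were -1.87 ± 0.17 on polysomes (adjusted p = 3.16e-07) and -1.38 ± 0.17 in the cytosol (adjusted p = 1.03e-05). RAD54B, its relative, fell, at -1.75 ± 0.19 on polysomes and -1.30 ± 0.19 in the cytosol. RAD52, which anneals single strands, had 4.98, 5.08, 5.59 and 5.26 in polysome RNA of PP242-treated cells, against 5.49, 5.36, 5.55 and 5.48 in vehicle-treated cells. Its groups overlapped, its effects were -0.24 ± 0.16 on polysomes and 0.24 ± 0.16 in the cytosol, and it was not called in any fit. The probe sets of RAD52 disagreed on polysomes, where the 2 next in signal gave 0.51 ± 0.19 and 0.52 ± 0.19, neither of them called.

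Of the 8 measured genes of the Fanconi core complex and its ubiquitin conjugation, 5 fell in both pools, FANCE and FANCL in 1 pool each, and FANCF in neither. UBE2T (chr1:202331657-202341936), the E2 enzyme that supplies the ubiquitin, had 6.53, 6.44, 6.34 and 6.04 in polysome RNA of PP242-treated cells, against 8.20, 8.40, 7.71 and 7.81 in vehicle-treated cells. In cytosolic RNA it had 7.0, 6.81, 5.83 and 6.20 in PP242-treated cells, against 8.17, 8.21, 7.83 and 7.83 in vehicle-treated cells. Both treatments were higher on arrays 1 and 2 than on 3 and 4, and the groups did not overlap. The effects were -1.69 ± 0.22 on polysomes (adjusted p = 2.22e-05) and -1.55 ± 0.22 in the cytosol (adjusted p = 5.67e-05).

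FANCL, the E3 ligase of the core, was called in cytosolic RNA and not in polysome RNA. The gene (chr2:58159243-58241380) had 8.10, 8.33, 8.23 and 7.97 in polysome RNA of PP242-treated cells, against 8.54, 8.63, 8.47 and 8.53 in vehicle-treated cells. Its cytosolic values were 7.44, 7.03, 8.35 and 6.71 in PP242-treated cells, against 8.39, 8.20, 8.64 and 8.53 in vehicle-treated cells. The polysome groups did not overlap, while in the cytosolic pool array 3 of PP242 lay inside the vehicle range. The cytosolic fall was -1.06 ± 0.23 (adjusted p = 0.00361), and the polysome effect was -0.39 ± 0.23 (adjusted p = 0.354). The difference between these effects, 0.67 ± 0.33, was not called (adjusted p = 0.559). The cytosolic call was lost without replicate 4 (-0.80, adjusted p = 0.0638) and without cytosolic PP242 arrays 2 and 4, the 2 of lowest weight (-0.55, adjusted p = 0.0938). When only the 8 polysome arrays were fitted, the polysome fall was called as well (adjusted p = 0.0292).

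FANCB, a subunit of the core, fell, at -1.45 ± 0.20 on polysomes and -1.48 ± 0.20 in the cytosol. FANCG, another subunit, fell, at -0.89 ± 0.14 on polysomes and -0.76 ± 0.14 in the cytosol. FANCM, the translocase that anchors the core to DNA, fell, at -1.07 ± 0.22 on polysomes and -1.38 ± 0.22 in the cytosol. FANCC fell, at -0.78 ± 0.10 on polysomes and -0.50 ± 0.10 in the cytosol, and its cytosolic call was lost without replicate 2 (adjusted p = 0.0512). When the probe sets of FANCC were averaged the cytosolic effect shrank to -0.15 (adjusted p = 0.135), and its 2 other probe sets had means under 5. FANCE, which contacts FANCD2, had 7.06, 6.73, 6.63 and 6.94 in polysome RNA of PP242-treated cells, against 7.21, 7.21, 7.43 and 7.58 in vehicle-treated cells, without overlap. Its polysome fall of -0.52 ± 0.14 (adjusted p = 0.0173) was lost without replicate 2, 3 or 4 (adjusted p of 0.0834, 0.119 and 0.0774), and its cytosolic effect was -0.22 ± 0.14. The difference between the effects was not called for FANCE (-0.30 ± 0.20, adjusted p = 0.623) or for MRE11 (0.28 ± 0.19, adjusted p = 0.639). FANCF, an adaptor of the core, gave 0.06 ± 0.17 on polysomes and -0.07 ± 0.17 in the cytosol, with overlapping groups. FANCI, the measured one of the pair that receives the ubiquitin, fell, at -1.18 ± 0.12 on polysomes (adjusted p = 1.40e-06) and -1.22 ± 0.12 in the cytosol (adjusted p = 9.58e-07).

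Joined molecules are taken apart by dissolution or by cutting. All 3 listed genes of the dissolution complex, the helicase BLM and its partners RMI1 and RMI2, fell in both pools. TOP3A, the topoisomerase of this complex, is not on the list. It fell in polysome RNA, at -0.455 ± 0.132 (limma adjusted p = 0.026). In cytosolic RNA it gave -0.142 ± 0.132 and was not called (adjusted p = 0.504). BLM (chr15:90717346-90816166) had 5.68, 5.68, 5.85 and 5.81 in polysome RNA of PP242-treated cells, against 7.07, 7.42, 7.48 and 7.39 in vehicle-treated cells. The cytosolic arrays read 5.01, 5.58, 5.49 and 6.11 in PP242-treated cells, against 6.77, 6.84, 7.13 and 7.20 in vehicle-treated cells. All PP242 arrays were below all vehicle arrays, and the effects were -1.59 ± 0.18 on polysomes (adjusted p = 4.09e-06) and -1.44 ± 0.18 in the cytosol (adjusted p = 1.28e-05). The effects were, for the scaffold subunit RMI1, -1.32 ± 0.15 on polysomes and -1.46 ± 0.15 in the cytosol and, for RMI2, -0.87 ± 0.16 on polysomes and -0.98 ± 0.16 in the cytosol.

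Of the listed genes of the nucleases that cut junctions, EME1 was the only one called. EME2, another partner of MUS81, is not on the list. It was called higher in polysome RNA, at 0.76 ± 0.156 (limma adjusted p = 0.0023). Its cytosolic effect of 0.297 ± 0.156 was not called (adjusted p = 0.211). MUS81, the catalytic partner of EME1 (chr11:65859674-65867653), had 8.06, 8.02, 8.03 and 8.15 in polysome RNA of PP242-treated cells, against 7.96, 8.07, 8.26 and 8.24 in vehicle-treated cells. In cytosolic RNA it had 7.59, 7.88, 7.61 and 8.25 in PP242-treated cells, against 7.44, 7.5, 7.81 and 7.75 in vehicle-treated cells. The groups overlapped in both pools, and the effects were -0.07 ± 0.14 on polysomes and 0.21 ± 0.14 in the cytosol, with 95% intervals of -0.36 to 0.23 and -0.09 to 0.50. SLX4, the scaffold for junction nucleases, gave -0.11 ± 0.14 on polysomes and -0.10 ± 0.14 in the cytosol, and its cytosolic level was called lower when its probe sets were averaged (-0.24, adjusted p = 0.0488). GEN1, a resolvase that acts late in the cell cycle, gave 0.09 ± 0.24 on polysomes and -0.66 ± 0.24 in the cytosol. Its cytosolic groups overlapped through PP242 array 3 at 5.63, and its cytosolic effect was called lower without replicate 3 (-0.87, adjusted p = 0.0109) and with the replicate block (adjusted p = 0.0193).

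EME1 (chr17:50373229-50381483) had 9.11, 9.18, 9.40 and 9.33 in polysome RNA of PP242-treated cells, against 9.62, 9.70, 9.84 and 9.94 in vehicle-treated cells. Its cytosolic values were 7.25, 6.97, 7.82 and 7.16 in PP242-treated cells, against 8.26, 8.28, 8.57 and 8.58 in vehicle-treated cells. The groups were apart in both pools, more widely in the cytosolic one. The effects were -0.52 ± 0.15 on polysomes (adjusted p = 0.03) and -1.12 ± 0.15 in the cytosol (adjusted p = 4.95e-05), and the polysome call was lost without replicate 1, 2 or 4 (adjusted p of 0.121, 0.104 and 0.136), and after quantile normalization (0.123) and cyclic loess (0.091) over all arrays. The other EME1 probe set gave -0.90 ± 0.13 in both pools.

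Whether PP242 moved these mRNAs on or off polysomes was asked by the difference of the 2 effects, polysome minus cytosolic, in which a positive value means a smaller fall on polysomes. Of the 35 genes 0 were called by limma, as were 0 of all 19775 genes (0%). At an unadjusted p under 0.05 there were 6 of the 35, beside 1750 of all genes (8.85%), and the lowest adjusted p among the 35 was 0.558. These 6 were BRIP1 at 0.92 ± 0.31, GEN1 at 0.75 ± 0.34 and EME1 at 0.60 ± 0.22 on the positive side, and RAD54L at -0.49 ± 0.23, RAD52 at -0.48 ± 0.23 and RAD51D at -0.46 ± 0.18 on the negative side. The differences of EME1 and RAD52 depended on the probe set. The other EME1 probe set gave -0.90 in both pools. Other RAD52 probe sets gave 0.51, 0.52 and -0.25 in polysome RNA, against 0.23, 0.12 and 0.10 in cytosolic RNA. Other probe sets of BRIP1, GEN1 and RAD51D kept the order of the pools. With the replicate block 9 of the 35 had an unadjusted p under 0.05, beside 14.9% of all genes, and the lowest adjusted p was 0.258. Without cytosolic PP242 arrays 2 and 4, an unadjusted p under 0.05 was found for 1 of the 35, beside 3.21% of all genes. The genes that fell in both pools had a median difference of 0.01, over a range of -0.49 to 0.92, and those called in neither had 0.07, over -0.48 to 0.75. The plot of one pool's effect against the other's places most of the falling genes near the line of equal effect.

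**Figure D4:**
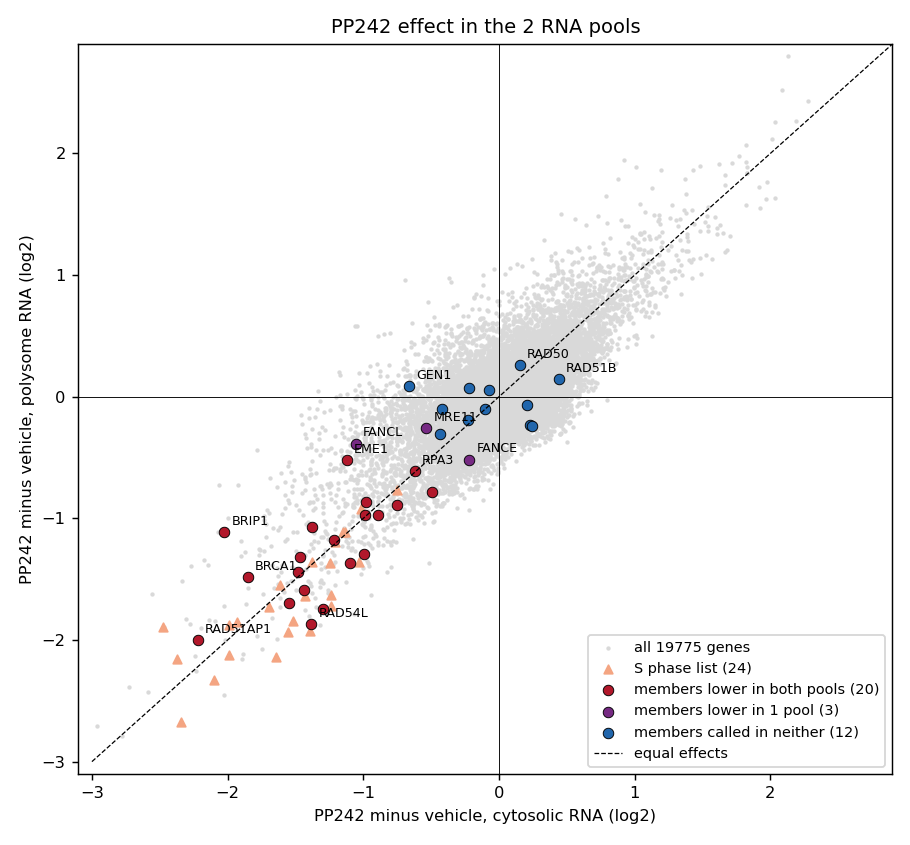
PP242 effect in polysome RNA (vertical, log2) against that in cytosolic RNA (horizontal, log2) for the 35 genes, coloured by the pools in which they were called, with all 19775 genes in grey and the 24 S phase genes as triangles; the diagonal marks equal effects. BRIP1 lies farthest above the line, at -1.11 in polysome RNA and -2.03 in cytosolic RNA.

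**Figure D5:**
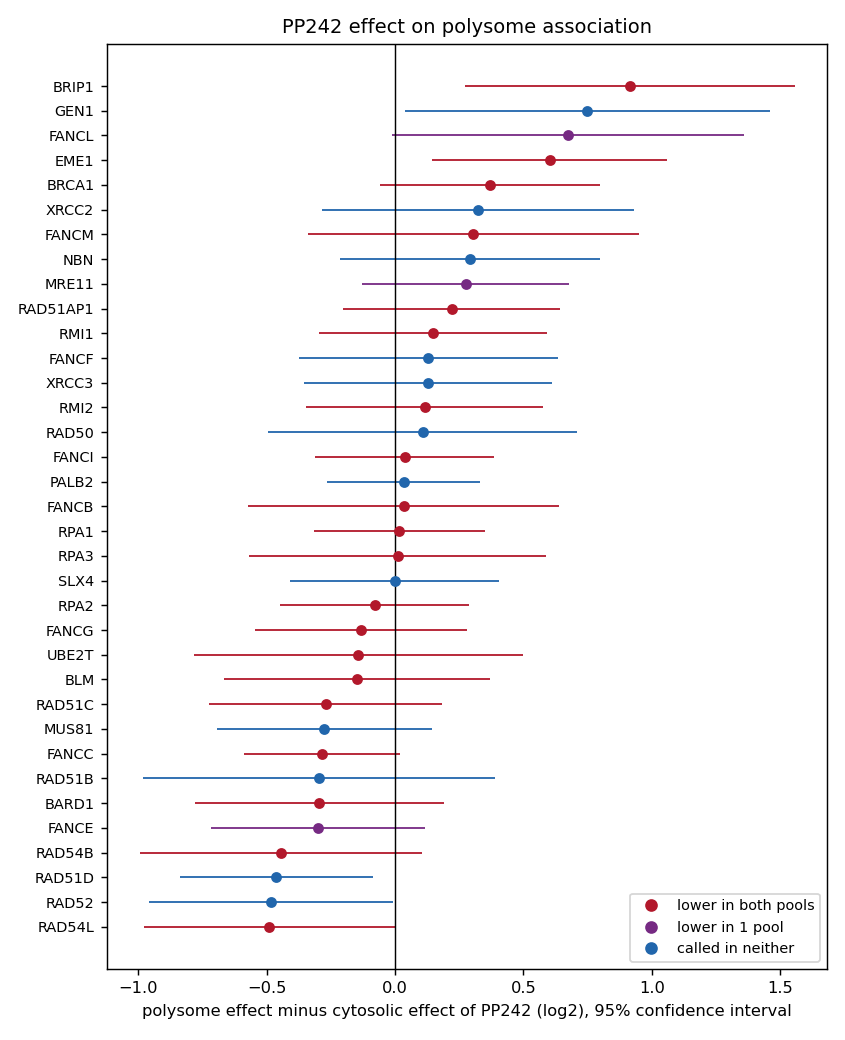
Polysome effect minus cytosolic effect (log2) of each gene with its 95% confidence interval from limma, ordered by value. The 6 genes whose interval leaves out 0 are BRIP1, GEN1 and EME1 above it and RAD51D, RAD52 and RAD54L below it, and none passed the adjusted p of 0.05.

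The level on polysomes over that in the cytosol was also compared within each treatment, after subtracting the median ratio of all genes, since the pools lie on separate scales. In PP242-treated cells 11 genes were higher and 3 lower on polysomes, against 24.6% and 25.1% of all genes. In vehicle-treated cells 15 genes were higher and 4 lower, against 24.1% and 24.7%. EME1 had the highest ratio, 2.14 ± 0.15 with PP242 and 1.51 ± 0.15 with vehicle. MRE11 stood at 1.19 ± 0.14 with PP242 and 0.89 ± 0.14 with vehicle, RPA1 at 1.13 ± 0.11 with PP242 and 1.09 ± 0.11 with vehicle, and FANCG at 0.95 ± 0.14 with PP242 and 1.06 ± 0.14 with vehicle. RMI1 was lower on polysomes under both treatments, at -0.45 ± 0.15 with PP242 and -0.62 ± 0.15 with vehicle. GEN1, at -0.76 ± 0.24, and BRIP1, at -0.71 ± 0.22, were called lower with vehicle, and were not called with PP242, at 0.01 ± 0.24 for GEN1 and 0.23 ± 0.22 for BRIP1. The GEN1 call was lost after quantile normalization over all arrays (-0.56, adjusted p = 0.0702) and after cyclic loess (-0.52, adjusted p = 0.0983). These ratios shift with the scaling: after quantile normalization over all arrays RPA1 had 0.73 with PP242 and 0.55 with vehicle, and RAD51AP1 had 0.12 with PP242 and -0.42 with vehicle, in place of 0.24 with PP242 and -0.01 with vehicle. Under that scaling EME1 had 1.96 with PP242 and 1.18 with vehicle, and RMI1 had -0.43 with PP242 and -0.79 with vehicle.

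Other probe sets of the same genes gave a further reading of the parting. They were fitted together with all 41091 probe sets of 1 gene, and their p-values were adjusted over that number. In that fit the chosen RPA3 probe set was not called in polysome RNA (limma adjusted p = 0.0551) and was called in cytosolic RNA (0.0441). The 10 falling genes with other probe sets held 18 of them, of which 11 were lower in both pools and 16 had negative effects in both. Of the 7 with a mean level of 5 or more, all 7 were lower in both pools. The 8 genes called in neither pool that had other probe sets held 16 of them, of which 0 were lower in both pools by limma and 1, the RAD51B probe set named above, was lower in polysome RNA. No other probe set of a listed gene was called higher. Of all 36 other probe sets, 13 of 8 genes had the opposite sign to the chosen one in polysome RNA and 6 of 5 genes in cytosolic RNA, and of these only the RAD51B one was called. Over the 16 fits tried, 16 genes were lower in both pools in every fit that held them: RPA1, RPA2, BRCA1, BARD1, BRIP1, RAD51C, RAD51AP1, RAD54L, RAD54B, FANCB, FANCG, FANCM, UBE2T, FANCI, BLM and RMI1. RAD50, NBN, PALB2, RAD51D, RAD52, FANCF and MUS81 were called in neither pool in any of them.

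Genes of recombination, crosslink repair and break signalling outside the list moved in both directions. Of 59 such genes 54 were measured. In polysome RNA 19 fell (35.2%), against 6.55% of all genes, and 6 rose, against 6.82%, with a median effect of -0.21. In cytosolic RNA 13 fell (24.1%), against 7.91% of all genes, and 5 rose, against 8.54%, with a median of -0.17. The excess over all genes was thus mainly in the falls. EXO1, the nuclease of long-range cutting back, fell, at -2.46 ± 0.19 in polysome RNA and -2.03 ± 0.19 in cytosolic RNA. The next largest falls in polysome RNA were those of FIGNL1 at -1.16 ± 0.20, of USP1, which removes the ubiquitin from FANCD2 and FANCI, at -1.12 ± 0.14, and of PARPBP at -1.11 ± 0.20. In cytosolic RNA they were DNA2, a nuclease that works beside EXO1, at -1.72 ± 0.16, TOPBP1, which activates the kinase ATR, at -1.69 ± 0.25, and MCM8 at -1.67 ± 0.18. The largest rises were those of ERCC1, the partner of the crosslink nuclease XPF, at 1.34 ± 0.23 on polysomes and 1.61 ± 0.23 in the cytosol, of HELB in polysome RNA at 0.91 ± 0.23, and of the break-signalling kinase ATM in cytosolic RNA at 0.86 ± 0.20.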

How the data were processed

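The deposited values are log2 expression values on 54613 probe sets of 16 one-colour Affymetrix arrays, summarized by the authors with RMA per the submitters' processing notes; no version or settings are stated. The values run from 1.65 to 14.61 with 0 missing, and 0 columns were left unused. The array's gene annotation lists 1 gene for 41091 probe sets, which were used, and several for 1801; 11721 are not in it. Of the 19775 genes, 10523 had several probe sets, and the brightest on average over 16 arrays was kept.

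limma 3.58.1 in R 4.3.3 fitted 1 mean per group over the 16 arrays (lmFit), with eBayes and an intensity trend. Tests are two-sided, and errors after ± are standard errors of the contrast. Polysome over cytosolic ratios had the median of all genes subtracted. Promoter words were searched with Python 3.11.15. Gene positions are those of RefSeq, GRCh38.p14. The number of arrays limits the precision. The steps were tested on simulated data. All measured genes of the list are named. Of the other pathway genes, the 4 largest falls and 2 largest rises called in each pool are named. TOP3A and EME2 were added later as partners of listed genes. Of end joining the called genes are named. The genes and lists were chosen with earlier results of these data known.

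Whether equal replicate numbers mark pairs was checked. Array deviations about their group mean correlated at 0.164 to 0.51 in 16 of 16 same-numbered pairs between compared groups. Pairs of unlike number ranged from -0.504 to 0.447. Polysome vehicle array 1 and cytosolic vehicle array 2 had 0.447, and polysome vehicle array 3 and cytosolic vehicle array 4 had 0.406. Positive values are thus not particular to equal numbers, but these 2 pairs join numbers 1 and 2 and numbers 3 and 4. Every pair between numbers 1 or 2 and numbers 3 or 4 was negative. Cytosolic vehicle array 2 and polysome vehicle array 3 had -0.504. The main fit took all arrays as independent, although a share of the cytosolic RNA gave the polysome RNA. A fit with the number as a block is given where it changes a call. The other settings tried were leaving out each replicate, replicate numbers 1 and 2 or 3 and 4 only, quantile and cyclic loess normalization over all arrays, the mean of all probe sets, each other probe set, a minimum mean of 5, array weights, the 8 compared arrays only, and no intensity trend. Leaving out cytosolic PP242 arrays 2 and 4 was chosen after seeing the data.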

Additional observations from a re-analysis of the deposited data

Results flagged for a closer look

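In 5 of the 140 groups of 4 arrays (35 genes in 4 groups), 1 array stood apart from the other 3 by Dixon's criterion. Chance alone marks about 1 in 20 groups. FANCB stood at 4.06 on polysome PP242 array 2, with the next array at 4.42, and RAD51C at 7.71 on polysome PP242 array 3, with the next at 8.10. RPA2 stood at 8.30 on polysome PP242 array 4, with the next at 8.13. MRE11 stood at 8.46 on polysome vehicle array 2, with the next at 8.14. RPA1 stood at 10.65 on cytosolic vehicle array 2, where the other 3 arrays were all at 10.62. In 4 of these cases the array lay on the side of its own treatment, and in the case of RPA2 it lay toward the vehicle arrays.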

How the results depend on the processing

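Leaving out 1 replicate at a time gave 18 to 20 genes lower in polysome RNA, 19 to 24 lower in cytosolic RNA, 17 to 20 lower in both pools, and 0 higher in either. The difference of the effects gave 0 calls in each case. On polysomes over cytosol these fits gave 8 to 11 genes higher and 0 to 3 lower with PP242, and 8 to 13 higher and 2 to 3 lower with vehicle. The replicate block gave 20 genes lower in both pools and 1 higher in cytosolic RNA (RAD51B at 0.44), as did replicate numbers 1 and 2 only, with 1 higher. Numbers 3 and 4 only gave 16 lower in both pools. For polysomes over cytosol with vehicle, numbers 1 and 2 only gave 2 lower and numbers 3 and 4 only gave 2 lower and 9 higher; with PP242, numbers 3 and 4 only gave 0 lower, and leaving out cytosolic PP242 arrays 2 and 4 gave 1 lower. The cause of these shifts was not tested; those fits hold fewer arrays. Where the chosen or the other probe set was called, single probe sets turned the sign for RAD51B in polysome RNA (-0.94), for FANCC in polysome RNA (0.24) and in cytosolic RNA (0.14), and for MRE11 in cytosolic RNA (0.12). The all-gene count of cytosolic rises moved most, from 1689 to 2755 with the block, 658 without replicate 2, 686 without replicate 4, 455 with numbers 3 and 4 only and 672 without cytosolic PP242 arrays 2 and 4. GEN1 was left out by the minimum mean of 5. The number of arrays, 4 a group, limits the precision: calls of RPA3, EME1, FANCE, MRE11, FANCL and, in cytosolic RNA, FANCC were lost without single replicates, and the polysome calls of RPA3 and EME1 also under both other normalizations of all 16 arrays.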

Other observations

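Non-homologous end joining, which seals breaks without a template, was measured with 12 of a list of 14 genes. In polysome RNA 2 fell (16.7%), against 6.55% of all genes, and 1 rose, against 6.82%. In cytosolic RNA 1 fell (8.33%), against 7.91% of all genes, and 2 rose, against 8.54%. The share of cytosolic falls was thus close to that of all genes. Median effects were -0.11 on polysomes and -0.12 in the cytosol. XRCC5, the larger subunit of the Ku end-binding dimer, fell in polysome RNA at -0.47 ± 0.09 and gave -0.27 ± 0.09 in cytosolic RNA. TDP1, which clears blocked ends, fell, at -0.90 ± 0.15 on polysomes and -0.83 ± 0.15 in the cytosol. The gap-filling polymerase POLL rose by 0.35 ± 0.11 on polysomes and 0.44 ± 0.11 in the cytosol, and its relative POLM rose in cytosolic RNA by 0.28 ± 0.09 and gave 0.06 ± 0.09 in polysome RNA.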
